A study of Mus musculus with 12 samples.

Results

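Primary granule and neutrophil extracellular trap (NET) genes were described in blood neutrophils of mice that received control or LOY bone marrow, LOY standing for loss of the Y chromosome. The members were 10 named genes, Padi4, Padi2, Mpo, Elane, Prtn3, Ctsg, Serpinb1a, Cst7, Rab44 and Nkg7, looked up by symbol in a table of 11494 genes. Of these, 6 had a row (Padi4, Rab44, Serpinb1a, Prtn3, Padi2 and Nkg7). The other 4, Mpo, Elane, Ctsg and Cst7, had no row by symbol or identifier and are not analysed here; the lowest mean of any listed gene was 8.63 normalized reads.

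The study compared 6 libraries of the group with control marrow and genotype Control with 6 libraries of the group with LOY marrow and genotype LOY, and the labels give the treatment of all 12 as Control. Each library came from 10000 blood cells sorted as positive for Ly6G and RFP and negative for CD115, a gate for neutrophils that carry the red fluorescent reporter. The sources used here do not give strain, age or the way the Y chromosome was lost. They also do not say whether libraries came from different mice, and the p-values therefore cover the spread between libraries, which may be technical. A normalized read is a read count divided by a size factor of its library, and libraries are named by group and by the number in their label.

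Neutrophils store antimicrobial proteins in granules that are filled in the order in which the cell matures. The primary or azurophil granule holds myeloperoxidase (Mpo) and the serine proteases neutrophil elastase (Elane), proteinase 3 (Prtn3) and cathepsin G (Ctsg), whose transcripts are made mainly at the promyelocyte stage in bone marrow and are low in circulating cells, which still carry the stored proteins. In NET formation a stimulated neutrophil releases decondensed chromatin bearing granule proteins. Peptidylarginine deiminase 4 (Padi4) converts arginines of histones to citrulline in that process, and Serpinb1a is a cytosolic inhibitor of the granule serine proteases.

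The libraries held between 13743581 and 19616066 recovered reads. Listed genes without a read made up 20.5%, 21.7% and 17.3% of the table in Control 1, 2 and 12, and between 6.59% and 11.6% in the other 9 libraries, so results are also given without those 3 libraries where that changes the direction of a difference or correlation between members, or moves it by over 1.5 times. The Y-linked genes Ddx3y and Eif2s3y summed to between 2595 and 3993 normalized reads in the control libraries. In LOY 4 they summed to 1352, which is 39.7% of the control mean, while the other 5 LOY libraries kept between 0.0762% and 3.13%, so LOY 4 only in part matches its label. Markers of mature neutrophils were the most abundant of the marker lists, with a summed level from 1388226 to 2408956 normalized reads among control and from 1398270 to 2067986 in LOY libraries.

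Upstream sequences are shown for the 2 deiminase genes and for Prtn3, because these genes differ most in level although Padi4 and Padi2 lie close together on chromosome 4 and both encode deiminases. RefSeq start sites (GRCm38.p6) were found for 4 of the 6 members with a row. Each line gives the 250 bases before the start, 5′ to 3′ on the strand of the gene, with motif matches in capitals.
Padi4: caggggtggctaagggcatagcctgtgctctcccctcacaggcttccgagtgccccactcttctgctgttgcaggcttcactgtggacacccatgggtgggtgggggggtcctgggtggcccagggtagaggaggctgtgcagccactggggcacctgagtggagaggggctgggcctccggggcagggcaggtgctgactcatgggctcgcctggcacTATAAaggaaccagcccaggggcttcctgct
Padi2: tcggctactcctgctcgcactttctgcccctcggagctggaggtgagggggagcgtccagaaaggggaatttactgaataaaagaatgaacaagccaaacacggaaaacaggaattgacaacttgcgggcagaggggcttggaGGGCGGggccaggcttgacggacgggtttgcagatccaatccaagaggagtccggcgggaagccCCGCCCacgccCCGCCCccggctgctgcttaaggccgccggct
Prtn3: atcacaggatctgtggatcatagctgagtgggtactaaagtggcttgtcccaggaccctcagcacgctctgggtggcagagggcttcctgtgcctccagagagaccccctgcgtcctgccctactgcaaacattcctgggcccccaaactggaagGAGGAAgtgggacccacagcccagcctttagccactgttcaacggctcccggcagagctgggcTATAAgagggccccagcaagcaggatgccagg
The windows are chr4:140774204-140774453 (minus strand), chr4:140906110-140906359 (plus strand) and chr10:79879417-79879666 (plus strand). The RefSeq starts differ from the GENCODE gene bounds given below. The Prtn3 window lies within the GENCODE span of the gene, and the Padi4 and Padi2 windows reach into theirs.

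The motifs searched on both strands were TATAA (TATA box), GGGCGG (GC box), GAGGAA (core of sites bound by PU.1 and other ETS factors) and TTGCNNAA (a C/EBP site), and no match overlapped another. The Padi4 window held 1 TATAA, starting 31 bases before the start. The Prtn3 window held a TATAA starting 32 bases before the start and a GAGGAA starting 95 bases before it. The Padi2 window held no TATAA and 3 matches of GGGCGG, starting 107, 43 and 32 bases before the start, the last 2 on the opposite strand. The window of Nkg7, which is not shown, held no match of any of these motifs. Of 32851 windows of the same length, 22.8% held TATAA, 32.7% GGGCGG, 23.3% GAGGAA and 9.56% TTGCNNAA. These matches describe letters only, and the series holds no measurement of binding or chromatin at these places.

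The members spanned a wide range of levels, and only the level per length compares genes. Padi4 stood at 2994 ± 527 normalized reads per kilobase of exon in control and 2680 ± 295 in LOY libraries (SD, n = 6 each). Rab44 followed at 747 ± 233 and 748 ± 195, and Serpinb1a at 199 ± 78.5 and 208 ± 83.6 (SD, n = 6 each). Padi4 was above Rab44, and Rab44 above Serpinb1a, in 12 of 12 libraries. Over all 12 libraries Padi4 was 3.80-fold above Rab44 and 13.9-fold above Serpinb1a per kilobase. Nkg7, Prtn3 and Padi2 had means over all libraries of 18.8, 9.10 and 3.22 normalized reads per kilobase. The order of these last 3 is not fixed by the libraries, since Nkg7 was above Prtn3 in 3 libraries, below it in 4 and tied with it at 0 in 5.

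**Figure D1:**
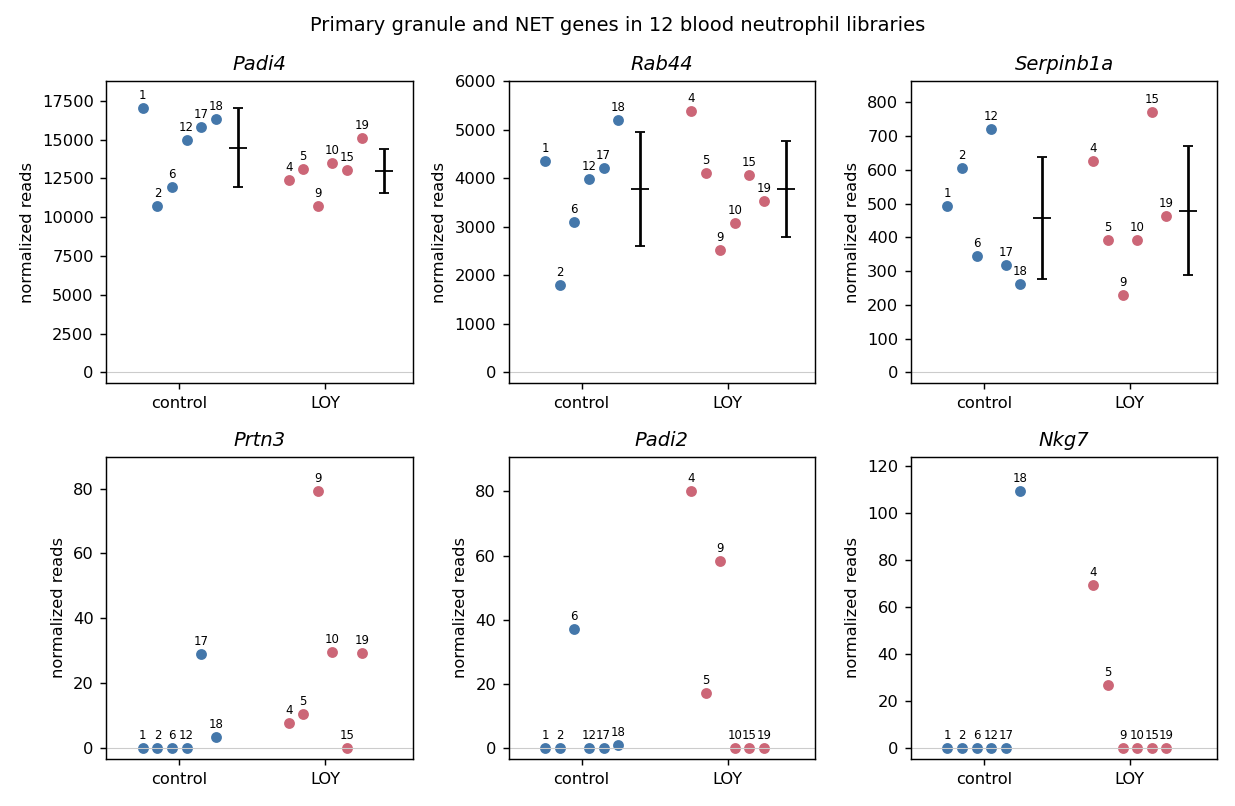
Normalized reads (y axis) of the 6 members with a row, by group (x axis). Each point is 1 library with the number from its label, and the bars of the upper 3 genes give the group mean and SD (n = 6). Groups overlap for every gene, and the lower 3 genes are at 0 in many libraries.

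Padi4 (ENSMUSG00000025330; GRCm38 chromosome 4, 140745865 to 140774236, minus strand) was read at 17069, 10751, 11922, 15000, 15794 and 16308 normalized reads in Control 1, 2, 6, 12, 17 and 18. It was read at 12411, 13085, 10697, 13464, 13021 and 15079 normalized reads in LOY 4, 5, 9, 10, 15 and 19. The control libraries held both high values and, in Control 2 and 6, low ones, and the LOY range lay almost inside the control range, with 1 LOY library below every control library and 0 above. The group means were 14474 ± 2549 and 12959 ± 1428 normalized reads (SD, n = 6 each). The log2 fold change, LOY over control on the log2(value + 1) scale, was −0.15 ± 0.12 (SE, limma adjusted p = 0.854), which did not pass. Its 95% interval runs from a fold of 0.751 to a fold of 1.09, so a 2-fold change either way lies outside it. Of all 9742 tested genes 30.7% had an interval within 2-fold either way, and of the 3582 with a mean of 500 normalized reads or more 72.4% did. The spread of Padi4 within groups was 0.22 on the log2 scale, and 12.6% of those 3582 genes had a smaller one (their median was 0.43).

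Rab44 (ENSMUSG00000064147; chromosome 17, 29114145 to 29148980, plus strand) encodes an atypical large Rab GTPase that has been linked to the release of granules and lysosomes. It was read at 4362, 1806, 3102, 3997, 4219 and 5214 normalized reads in Control 1, 2, 6, 12, 17 and 18. In LOY 4, 5, 9, 10, 15 and 19 it was read at 5385, 4122, 2530, 3089, 4068 and 3529. The groups overlapped almost wholly, with the lowest value in Control 2 and the highest in LOY 4. The means were 3783 ± 1182 and 3787 ± 988 normalized reads (SD, n = 6 each), and the log2 fold change was 0.04 ± 0.25 (SE, limma adjusted p = 0.980). The 95% interval of the fold is 0.704 to 1.49. The sign of so small an estimate followed single libraries: leaving out Control 2 gave −0.16, leaving out Control 6 gave −0.01 and leaving out LOY 4 gave −0.07. It was −0.15 without Control 1, 2 and 12 together, and −0.29 when the fit took in each library's share of genes at 0.

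Serpinb1a (ENSMUSG00000044734; chromosome 13, 32842092 to 32851185, minus strand) has close relatives in the genome, Serpinb1b and Serpinb1c, for which there was no row, and the counting of shared reads is not described, so its level is uncertain to that extent. It was read at 494, 606, 346, 722, 319 and 261 normalized reads in Control 1, 2, 6, 12, 17 and 18. It was read at 627, 393, 229, 393, 772 and 464 in LOY 4, 5, 9, 10, 15 and 19. Both groups ran from low to high values, with LOY 9 the lowest and LOY 15 the highest library. The means were 458 ± 181 and 479.8 ± 193 normalized reads (SD, n = 6 each), with a log2 fold change of 0.06 ± 0.34 (SE; adjusted p = 0.978 in limma). The 95% interval of the fold is 0.624 to 1.74. The estimate was 0.54 without Control 1, 2 and 12 and 0.51 when the fit took in each library's share of genes at 0, and it turned slightly negative without Control 6, 17 or 18 (−0.0025, −0.03 and −0.08) and without LOY 4 or 15 (−0.04 and −0.10).

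Of the 3 members tested, 0 passed with limma, edgeR or DESeq2 at the adjusted threshold of 0.05, and 0 fell below 0.05 before adjustment with any of these tools. Across the 9742 tested genes limma called 2, which is 0.0205%, and 6.04% had an unadjusted p under 0.05. With edgeR 0 genes (0%) were called, and 2.94% had an unadjusted p below that value. DESeq2, run on all listed genes, called 0.484% of 11148, and 5.55% had such an unadjusted p. Nor did the 2 groups of libraries separate for any of the 3 members tested, against 0.287% of tested genes for which they did. Prtn3, Padi2 and Nkg7 were each at 0 in libraries of both groups, so their groups could not separate. In the authors' deposited table the log2 fold changes were −0.16 for Padi4, 0.0013 for Rab44 and 0.07 for Serpinb1a, with unadjusted p-values of 0.232, 0.996 and 0.853, where 0.493% of genes with an adjusted p were called. The DESeq2 run here gave the same values for these 3 genes.

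**Figure D2:**
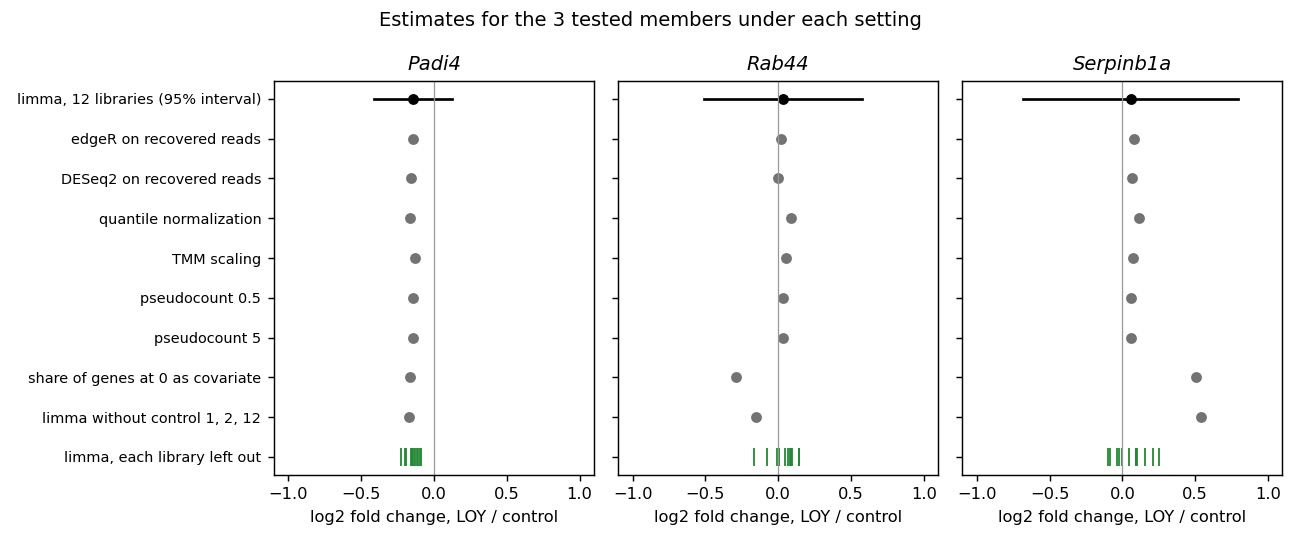
Log2 fold change of LOY over control (x axis) for the 3 tested members under each analysis setting (y axis). The black line is the 95% interval of the limma estimate with 12 libraries, and the green ticks are the estimates with each library left out. Padi4 stays between −0.23 and −0.09, while Rab44 and Serpinb1a lie on both sides of 0.

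The levels of Padi4 and Rab44 were compared across libraries. Over the 12 libraries Pearson's r of their log2 values was 0.68 (permutation p = 0.0127, adjusted p = 0.0382 over 3 pairs of members) and Spearman's rho was 0.59 (permutation p = 0.0457, adjusted p = 0.137), so the rank correlation did not pass the adjustment. Without LOY 9 and Control 1, the libraries farthest from the median of Padi4, r was 0.63 (n = 10). Within the control libraries r was 0.93 and within the LOY libraries 0.30 (n = 6 each), and the difference between the groups was not tested. Without Control 1, 2 and 12 r was 0.56 (n = 9). Serpinb1a had an r over all libraries of −0.0026 with Padi4 (permutation p = 0.993, adjusted p = 0.993) and 0.06 with Rab44 (permutation p = 0.846, adjusted p = 0.993), and its rho was −0.03 (permutation p = 0.920) and 0.08 (permutation p = 0.801). Without the 2 libraries farthest from the median these r were −0.41 and −0.23 (n = 10). With Padi4 r was −0.28 within control and 0.49 within LOY libraries, and with Rab44 it was −0.48 and 0.80 (n = 6 each), so the signs were opposite in the groups, a difference that was not tested. Without Control 1, 2 and 12 r was −0.03 with Padi4 and 0.37 with Rab44 (n = 9). These relations compare libraries whose share of genes at 0 also differs, and the part of that share in them was not tested.

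**Figure D3:**
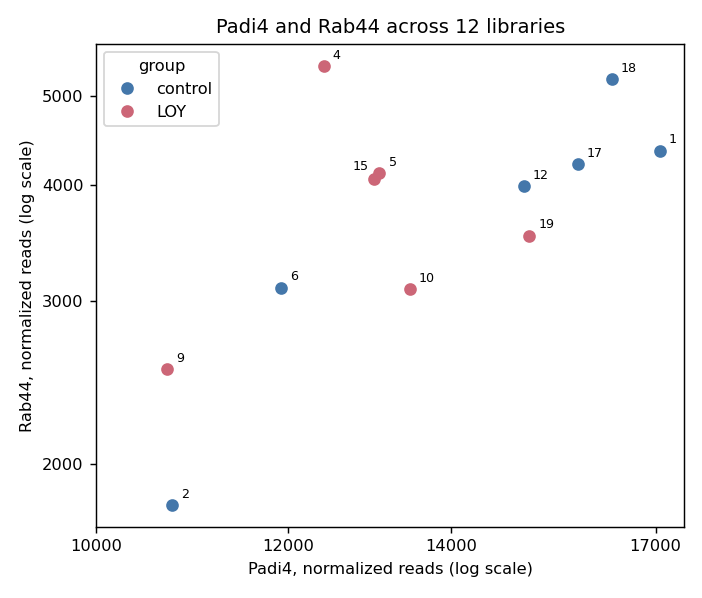
Normalized reads of Padi4 (x axis, log scale) and Rab44 (y axis, log scale) in the 6 control and 6 LOY libraries, each point labelled with its library number. The control libraries run along 1 line from Control 2 at the lower left to Control 18 at the upper right, whereas LOY 4 has the highest Rab44 beside a Padi4 of 12411.

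The genes whose pattern over the 12 libraries was most like that of Padi4, among 3581 others with a mean of 500 normalized reads or more, were Flii (Pearson's r = 0.84), Cux1 (0.83) and Fam214b (0.83). For Rab44 they were Plcl2 (r = 0.90), Cd2bp2 (0.88) and Ostm1 (0.86). Serpinb1a had a mean below 500 and was not searched. Each was picked as the highest coefficient over the same 12 libraries, so they describe likeness and carry no test.

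Prtn3, Padi2 and Nkg7 did not reach the filter of 10 normalized reads in at least 6 libraries, and each was read in some libraries and absent from others. In these libraries a count of 0 allows up to 3 reads, which is 2.46 to 3.84 normalized reads depending on the library (counting error only). Of 180 genes with a mean as low as theirs, 58.9% were outside the filter, against 15.2% of all listed genes, and the median such gene was at 0 in 5 of 12 libraries.

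Prtn3 (ENSMUSG00000057729; chromosome 10, 79874476 to 79883174, plus strand) is the only serine protease of the primary granule among the members with a row. It was at 0 in Control 1, 2, 6 and 12, at 29.0 normalized reads (31 reads) in Control 17 and at 3.50 (4 reads) in Control 18. In LOY 4, 5, 9, 10 and 19 it was at 7.72, 10.7, 79.2, 29.6 and 29.4 normalized reads, and in LOY 15 at 0. It was thus read in 2 of 6 control and 5 of 6 LOY libraries, and 3 LOY libraries were above every control library. Of these, LOY 10 and 19 (32 and 34 reads) were close to Control 17. Control 1, 2 and 12, among those at 0, also had the most listed genes at 0. The share of other genes with such a pattern was not counted. With no filter the log2 fold change was 2.63 ± 1.20 (SE, limma adjusted p = 0.781; unadjusted p = 0.0484, in a fit where 6.39% of genes had an unadjusted p below 0.05 and 0.0174% were called). The unadjusted p was 0.218 with edgeR and no filter and 0.246 with DESeq2, which the value in the authors' deposited table (0.246) matches. The difference between group means was 20.7 normalized reads, LOY minus control, and 10.1 without LOY 9, the library with the highest value. Exons of Prtn3 share 159 bases with those of Plppr3 on the opposite strand, and the library kit does not mark strand. Plppr3 was above 0 in 7 libraries, and Prtn3 had reads in 3 libraries in which Plppr3 had none.

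Padi2 (ENSMUSG00000028927; chromosome 4, 140906344 to 140952586, plus strand), a deiminase related to Padi4, was at 37.3 normalized reads (37 reads) in Control 6, at 0.875 (1 read) in Control 18 and at 0 in the other 4 control libraries. It was at 80.0, 17.2 and 58.3 normalized reads in LOY 4, 5 and 9 and at 0 in LOY 10, 15 and 19. Reads above what a count of 0 allows were thus found in 1 control and 3 LOY libraries. With no filter the log2 fold change was 1.71 ± 1.45 (SE, limma adjusted p = 0.856). The difference between means was 19.6 normalized reads, and 8.74 without LOY 4, the library that kept Y-linked reads. Its exons share 149 bases with the antisense gene Gm13031. Of the other deiminase genes, Padi3 was read in 12 of 12 libraries at 31.5 ± 29.6 normalized reads in the control group and 27.4 ± 17.5 in the LOY group (SD, n = 6 each; log2 fold change 0.36 ± 1.04 SE, adjusted p = 0.949 in limma), and Padi1 and Padi6 had no row.

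Nkg7 (ENSMUSG00000004612; chromosome 7, 43437073 to 43438249, plus strand) encodes a granule membrane protein best known from natural killer and cytotoxic T cells. It was at 109 normalized reads (125 reads) in Control 18, 69.4 in LOY 4 and 27.0 in LOY 5, and at 0 in the other 9 libraries. The log2 fold change with no filter was 0.69 ± 1.54 (SE, limma adjusted p = 0.943), whereas the mean was lower in LOY, at 16.1 against 18.2 normalized reads, and DESeq2 gave −0.18. The difference between means, LOY minus control, was −2.16 normalized reads with all libraries and its sign followed single libraries. It was 16.1 without Control 18 and 1.06 without LOY 9, 10, 15 or 19, each left out alone. It was −12.8 without LOY 4, −4.35 without LOY 5, −5.80 without any 1 of the other 5 control libraries, and −20.4 without Control 1, 2 and 12. Of 20 marker genes of natural killer, cytotoxic T and T cells, 5 had a row, and 15 had none, among them Gzma, Gzmb, Prf1, Ncr1 and Klrb1c. Those 5 summed to between 161 and 496 normalized reads in control and to between 123 and 286 in LOY libraries, and its part in the Nkg7 reads was not tested. In bulk samples more such cells and more RNA per cell cannot be told apart.

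Detection of the 3 sparse members differed between libraries. All 3 had reads in Control 18, LOY 4 and LOY 5, and 0 of 3 had reads in Control 1, 2 and 12 and in LOY 15. Control 1, 2 and 12 were also the libraries with the most listed genes at 0 (17.3% to 21.7%), LOY 4 and 5 those with the fewest (6.59% and 6.79%), and LOY 15 lay between them at 9.31%. The part of this share in the detection of the sparse members was not tested.

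Genes of the related lists gave the setting of the members. Over 12 lists with 197 genes, 142 had a row and 123 were tested, and limma called 0. Before adjustment 8 had a p below 0.05, of which 5 were higher in LOY (4.4% of all tested genes were) and 3 lower (1.63%). Their median log2 fold change was 0.02, beside 0.14 over all tested genes; with quantile normalization and edgeR the latter median was 0.0006 and −0.0098. DESeq2 called 3 genes of these lists, named after their values were seen: Ltf (adjusted p = 0.0351) and the monocyte and macrophage genes F13a1 (1.02e-08) and Irf8 (0.00312). F13a1 had reads in 2 LOY libraries and Irf8, which was placed in the list of transcription factors, in 5 LOY libraries, both in 0 control libraries. Both genes were outside the filter and so were not tested in the main limma fit. With no filter limma gave them adjusted p-values of 0.808 (F13a1) and 0.548 (Irf8).

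Other cargo of the azurophil granule and the machinery that sorts and releases it were compared next. Of 15 tested cargo and processing genes 0 passed in either direction (median log2 fold change −0.03). The lysozyme gene Lyz2 (262856 ± 52414 normalized reads (SD) against 209665 ± 37513 in LOY, log2 fold change −0.32 ± 0.15 SE), the serglycin gene Srgn, whose proteoglycan holds proteases in the granule (−0.12 ± 0.14), and the lysosomal mannosidase gene Man2b1 (−0.03 ± 0.09) were the most abundant. Ctsc, which encodes the enzyme that activates the granule serine proteases, stood at 310 ± 206 and 363 ± 243 normalized reads (SD, n = 6 each). Of 13 tested docking and release genes 0 passed (median 0.09). Among them were the fusion genes Snap23 (0.09 ± 0.10), Vamp8 (−0.20 ± 0.12) and Stx11 (−0.32 ± 0.18) and the granule GTPase gene Rab27a (−0.30 ± 0.14, limma adjusted p = 0.81).

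Inhibitors of the granule proteases and other genes of NET formation come next. Of 10 tested inhibitor genes 0 passed (median 0.02). The secreted inhibitor of elastase and cathepsin G, Slpi, stood at 80447 ± 6062 and 84981 ± 17911 normalized reads (SD, n = 6 each; 0.06 ± 0.11 SE), with the cystatin gene Cst3 at 0.08 ± 0.12 and the stefin genes Stfa2l1 at −0.02 ± 0.27, Cstb at −0.23 ± 0.18 and Stfa3 at 3.55 ± 1.16 (limma adjusted p = 0.693). Of 29 tested genes of NET signalling and execution 0 passed (median 0.02). The abundant ones were the GTPase gene Rac2 of the NADPH oxidase (−0.05 ± 0.09), the selectin ligand gene Selplg (0.18 ± 0.08, limma adjusted p = 0.81) and the integrin gene Itgb2 (0.00 ± 0.07). Gsdmd, the pore-forming gasdermin D gene, stood at 4791 ± 1148 and 4958 ± 692 normalized reads (SD, n = 6 each).

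**Figure D4:**
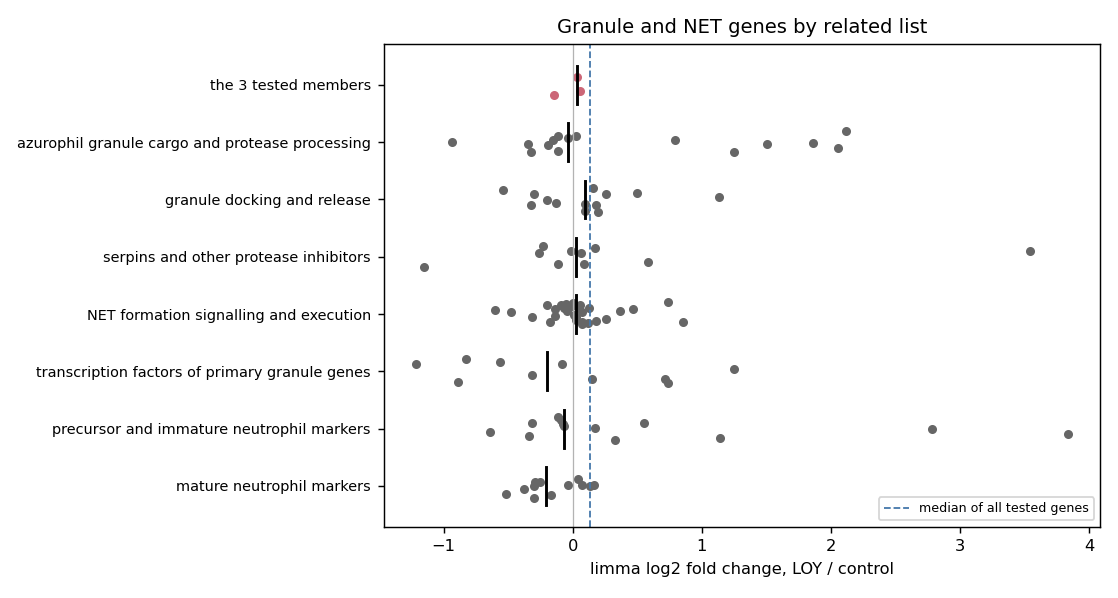
Limma log2 fold change of LOY over control (x axis) for the 3 tested members and for the tested genes of 7 related lists (y axis), 1 point per gene, with the median of each list as a black bar and that of all tested genes (0.14) as a dashed line. The members lie between −0.15 and 0.06, and no point passed the test.

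Regulators and stage markers bear on where primary granule transcripts are made. Of 10 tested transcription factors of these genes 0 passed (median −0.20). Spi1, the gene of PU.1, stood at 21581 ± 4662 and 19483 ± 9371 normalized reads (SD, n = 6 each; −0.32 ± 0.36 SE), Cebpd at −1.21 ± 0.87, Cebpb at −0.83 ± 0.46 and Cux1 at −0.56 ± 0.19 (limma adjusted p = 0.762). Of 13 tested precursor and immature markers 0 passed (median −0.07). Mmp8 (−0.34 ± 0.27), Lcn2 (−0.11 ± 0.25) and Igsf6 (−0.07 ± 0.10) were abundant, and the secondary granule genes Ltf (3.84 ± 1.13, limma adjusted p = 0.602) and Camp (2.78 ± 1.00, adjusted p = 0.762) had the smallest p. Cd34 and Ms4a3, known from earlier stages, had no row. Of 12 tested mature markers 0 passed (median −0.21), with S100a8 at −0.29 ± 0.19, S100a9 at −0.25 ± 0.16, Csf3r at 0.16 ± 0.11 and Fpr1 at −0.38 ± 0.14 (limma adjusted p = 0.77).

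Markers of other blood cells were checked because Nkg7 and other members are also known from such cells. Of the 22 tested genes of these 5 lists 0 passed. Cd3d (−0.72 ± 0.77) and Cd3g (−1.83 ± 1.51) were the tested T cell genes. B cell genes were led by Ighm (−0.36 ± 0.33), Cd79a (0.07 ± 1.40) and Ighd (0.25 ± 1.52), with Ms4a1 at 1.29 ± 1.92. Cd79a, with a lowest control value of 0, had means of 322 ± 235 in control and 186 ± 134 in LOY libraries (SD, n = 6 each). With edgeR its log2 fold change was −0.79, and that of Ms4a1 was 0.18. Of monocyte genes Csf1r stood at 9279 ± 2572 and 12442 ± 2295 normalized reads (SD, n = 6 each; 0.45 ± 0.19 SE, limma adjusted p = 0.81), Adgre1 at −0.23 ± 0.47 and Ly6c2 at −0.57 ± 0.31. The eosinophil receptor gene Ccr3 stood at 1.37 ± 1.27, and the mast cell genes Cpa3, Cma1 and Tpsb2 had no row. Of the 14 genes of this list 5 had a row. Besides Ccr3 these were Ms4a2, Fcer1a, Mcpt8 and Ear2, which were not tested. They had reads in 3, 2, 1 and 1 control libraries and in 3, 2, 3 and 4 LOY libraries. The globin genes Hba-a1 (0.71 ± 0.39), Hba-a2 (0.70 ± 0.39), Hbb-bs (0.74 ± 0.43) and Hbb-bt (0.83 ± 0.42) were highest in LOY 15, and the platelet gene Pf4 stood at −0.91 ± 0.39 (limma adjusted p = 0.81).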

How the data were processed

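RNA was measured in 12 libraries of sorted mouse blood neutrophils. Per the labels' protocols, cDNA was made with SMART-Seq v4 and libraries with Nextera XT. Per the submitters' processing notes, the tools included STAR 2.5.2b, Subread 1.5.2 with featureCounts, Trimmomatic 0.36 and bcl2fastq 2.17, and the genome builds were mm10 and GRCm38. The authors deposited a table of signal values, normalized between libraries, with 1 row per gene. The values of each library are whole multiples of 1 step (tolerance 0.02 reads, 100% of values above 0), so reads were recovered; in Control 6 the step is close to 1, so edgeR was also run without it, a choice made after seeing the data. Per the file headers, log2 fold changes and p-values of the authors (raw and adjusted) are in the same table. No source used here names the tool behind them. For the 6 members with a row they match the DESeq2 run here to the digits printed, so the 2 are not separate results. Gene names that had become dates (16) were restored through their identifiers, and coordinates and exon lengths come from GENCODE vM21 (GRCm38), which held 11472 of the 11494 identifiers.

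The test was limma 3.58.1 (R 4.3.3; trended, robust) on log2(value + 1), LOY against control with no covariate, for genes with 10 or more normalized reads in at least 6 libraries, adjusted over all 9742 tested genes by the Benjamini-Hochberg method (threshold 0.05). On this scale changes of low genes can be larger or smaller than with DESeq2. Log2 fold changes with limma and DESeq2 were 2.78 and 1.50 for Camp and 3.55 and 2.23 for Stfa3. With no filter limma gave 1.71 for Padi2, where DESeq2 gave 2.03. On the recovered reads, DESeq2 1.42.0 and the quasi-likelihood test of edgeR 4.0.16 were run as alternatives, as were other scalings, filters and pseudocounts, each library's share of genes at 0 in the fit, and left-out libraries. Permutation tests of correlations used scipy 1.17.1 and 100000 draws. The scripts were tested on simulated counts. The members and lists were chosen with earlier results of these data known. Named were all members, and of each list the 3 most abundant tested genes and the 2 with the smallest p; Ctsc, Gsdmd, Padi3 and the genes called by DESeq2 are named beside this rule, and 2 genes that it names are not reported here.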

Additional observations from a re-analysis of the deposited data

Results flagged for a closer look

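In 102 groups of 6 libraries (51 genes named above, control and LOY) 19 had 1 library far from the others. The gap between that library and the next was in each case more than 0.625 of the range of the group. Chance passes this cutoff in about 1 in 20 groups only where values follow a normal distribution. A group with reads in a single library always passes it, as for Nkg7 in Control 18. The globin genes were all flagged for LOY 15, so the flags are not separate. The 19 groups are therefore listed without a comparison to chance.

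Among the members, Padi2 was at 37.25 normalized reads in Control 6 and at most 0.875 in the other control libraries. Prtn3 was at 29.03 in Control 17, against at most 3.50 in the other control libraries, and at 79.21 in LOY 9, against at most 29.6 in the other LOY libraries. Nkg7 was at 109.4 in Control 18 and at 0 in the other control libraries.

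Among genes of the related lists, Camp was at 228.6 normalized reads in Control 6, Stfa3 at 61.36 in Control 12 and Itgb2 at 42411 in Control 1. In Control 2, Cebpb was at 798.1, Vamp8 at 10994 and, below the others, Csf3r at 104006. In LOY 4 Cebpd was at 7937, against 396 to 792 in the other LOY libraries. In LOY 9 Fpr1 was at 12610, below the others. In LOY 10 Cstb was at 1585, Slpi at 121288 and Stfa2l1 at 14377. In LOY 15 Hba-a1 was at 244166, Hba-a2 at 117876, Hbb-bs at 186193 and Hbb-bt at 65264.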

How the results depend on the processing

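Under all 24 alternatives run, 0 members were called, and the Padi4 estimate stayed negative, between −0.23 and −0.09 (adjusted p from 0.688 to 1). Prtn3, Padi2 and Nkg7 were tested only with DESeq2 and in the limma and edgeR fits with no filter. The other alternatives left them out and so could not call them. The estimates of Rab44 and Serpinb1a, close to 0 and not called, changed sign. For Rab44 the log2 fold change was −0.29 when the share of genes at 0 was a covariate, −0.15 without Control 1, 2 and 12 together, −0.056 with edgeR without Control 6, an alternative chosen after seeing the data, and −0.16 to 0.14 with each library left out. For Serpinb1a it was −0.0091 with edgeR without Control 6 and −0.10 to 0.25 with each library left out. The cause was not tested. The count of genes called across the table, 2 in the main test, was 0 with edgeR, with edgeR without Control 6, with edgeR and no filter (also chosen after seeing the data), with quantile normalization, with a mean of 50 or more, with the covariate and without Control 1, 2 and 12 together, and 54 with DESeq2. With each library left out it ran from 0 to 15: it was 15 without Control 6, 9 without Control 18, 6 without Control 17, 5 without Control 12, 1 without Control 1, and 0 without Control 2, LOY 5, LOY 9, LOY 10, LOY 15 or LOY 19. Of the related lists 3 genes were called with DESeq2 and 0 under the other alternatives. Of these 3, F13a1 and Irf8 were outside the filter, so among the other alternatives only the fits with no filter tested them. For the members outside the filter, reads in a few libraries set the mean, and a count of 0 allows up to 3 reads in a library. No paired analysis was possible because the groups share no replicate number.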
